A study of Rattus norvegicus with 6 samples.

Results

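The diet by fracture interaction asks whether a fracture changed gene expression differently in alcohol-fed and in pair-fed rats. For each gene it is the fracture effect in alcohol-fed rats minus the fracture effect in pair-fed rats. It was read from 4 of the 6 deposited pairings of rat groups, which carry 8 of the 12 numbered RNA samples, and it was tested in 23549 rows, 12589 of them named genes. RNA came from the fracture region in the right hind-limb of rats of the Sprague-Dawley strain and was measured on 2-colour arrays, with dye swaps. The 4 groups were alcohol-fed with fracture, alcohol-fed without fracture, pair-fed with fracture and pair-fed without fracture. All rats started as weanlings of 4 weeks and received a liquid Lieber and DeCarli diet, with ethanol or pair-fed, for 4 weeks. Fractured rats had a pin set in the marrow cavity and a closed break in the mid-shaft, and tissue was collected after 3 days. The labels do not say whether unfractured rats received a pin, or whether a numbered sample is 1 rat or a pool.

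At this early stage a fracture is filled by a blood clot, and neutrophils and then macrophages enter it before cartilage and new bone form. Marrow, which makes red and white blood cells, and torn muscle lie beside the break, so RNA from this region comes from many cell types. In such bulk samples fewer cells of a type and less RNA per cell cannot be told apart. Long alcohol intake is known to slow bone repair, and an interaction is the part of the fracture response that differs with the diet. Because the deposited values are ratios, they carry no levels, and the presence of bone or callus markers in each group was not tested.

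Each pairing gave 1 log ratio per probe, in log units of unknown base, so no fold is quoted. The interaction can be formed independently in 2 ways. The fracture pairings give the fracture effect in alcohol-fed rats minus that in pair-fed rats. The diet pairings give the alcohol effect in fractured rats minus that in unfractured rats. These estimates share no array and no numbered sample, and the fitted interaction is their mean. The other 2 pairings enter only its error. Each ratio was read with the group that its title gives first on top, which the dye labels do not settle. Pair-fed fracture samples come first in both pairings with alcohol-fed rats, yet those columns, with fractured and with unfractured alcohol-fed rats, had an r of -0.62 over rows. The directions are therefore not settled. Were all columns reversed, each sign given here would be reversed too. Turning only the column with unfractured alcohol-fed rats changes no interaction value, because that column is not part of it. Turning only the column with fractured alcohol-fed rats does change the values. Results under that second reading are given for the shares of the next paragraphs and, as ranges, for the 24 named genes. They are also given as medians for 9 gene lists and for some genes of those and other lists. Standard deviations over all spots were 0.572 for the fracture pairing of alcohol-fed rats, 0.252 for that of pair-fed rats, 0.523 for the diet pairing of fractured rats and 0.344 for that of unfractured rats.

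No gene passed the test of the interaction. Limma with Benjamini-Hochberg adjustment called 0 of 23549 rows at 0.05 (0%), and the smallest adjusted p was 0.138. At an unadjusted p under 0.05 there were 2492 rows (10.6%), of which 898 were positive (3.81%) and 1594 negative (6.77%). A share of 0.05 of all rows would be 1177. An unadjusted p under 0.01 was reached by 909 rows (3.86%), by 171 rows on the positive side (0.726%) and by 738 on the negative side (3.13%). The result rests on which pairings supply the error. With the 4 pairings of the estimate alone, the only residual is the difference between both estimates, with 1 degree of freedom. Limma draws that error towards a value shared by all rows. So Pkn2, with estimates of -2.37 and -2.36, still had an SE of 0.26. A pass there is thus no measure of how close both estimates are in a row. In that fit 392 rows passed (1.66%), of which 49 were positive (0.208%) and 343 negative (1.46%). The smallest adjusted p was then 0.0257.

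Across rows the separate estimates had a Pearson r of 0.30 and a Spearman rho of 0.21, as a description over 23549 rows that share arrays and are not independent. They had the same sign in 56.5% of rows. Both lay above 0.5 log units in 797 rows (3.38%) and both below -0.5 in 1407 rows (5.97%), while 791 rows (3.36%) lay beyond 0.5 on opposite sides. The opposite-side count pools both kinds of disagreement, high by the fracture and low by the diet pairings, and the reverse. The high side alone is thus about as frequent as both kinds of disagreement together, and the low side more frequent. Beyond 1 log unit there were 94 rows on the high side (0.399%), 492 on the low side (2.09%) and 64 on opposite sides (0.272%). The scatter of the estimates shows this as a tail towards the lower left.

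**Figure D1:**
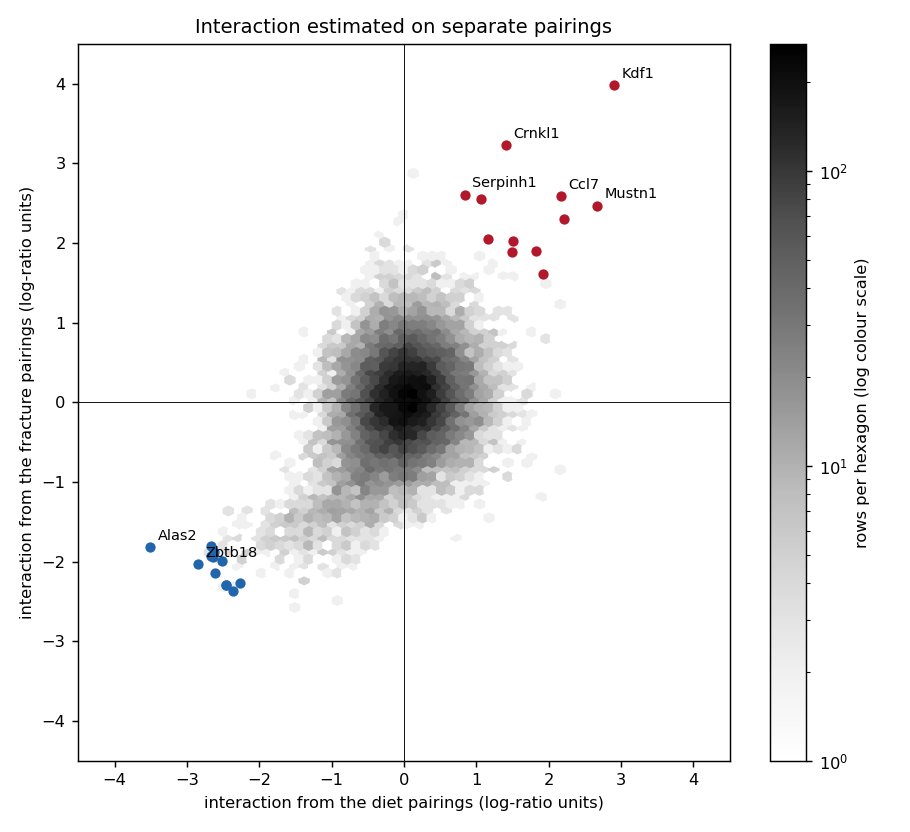
Interaction from the diet pairings (x axis) against interaction from the fracture pairings (y axis), in log-ratio units, with rows per hexagon on a log colour scale. Red points are the 12 named genes of the high side and blue points the 12 of the low side; Kdf1 lies at 2.90 and 3.98, and Alas2 at -3.51 and -1.82.

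The interaction came mainly from the pairings that hold alcohol-fed fracture samples. The fracture pairing of alcohol-fed rats carried 47.5% of its variance over rows and the diet pairing of fractured rats 35.8%. The diet pairing of unfractured rats carried 9.97% and the fracture pairing of pair-fed rats 6.70%. The larger spread of the first 2 columns alone gives them more weight, and what causes that spread was not tested. Among the fitted levels of the 4 groups, alcohol-fed fracture lay farthest from their mean in 48.1% of all rows. It did so in 129 of the 171 high rows with an unadjusted p under 0.01 (75.4%) and in 693 of the 738 low rows (93.9%). These shares rest on the unsettled direction of the pairing of fractured rats. With that column turned, alcohol-fed fracture lay farthest in 26.6% of all rows, in 10 of the same 171 high rows (5.85%) and in 8 of the same 738 low rows (1.08%). The fracture pairing of alcohol-fed rats then carried 27.2% of the variance, the diet pairing of fractured rats 31.6%, that of unfractured rats 24.5% and the fracture pairing of pair-fed rats 16.7%.

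The 12 named genes of the high side are those with the largest positive interaction among named rows with an unadjusted p under 0.01 and 1 sign in both estimates. Their deposited fracture effect ran between 1.35 and 3.73 in alcohol-fed rats, against -0.90 to 0.53 in pair-fed rats, so the diets did not overlap. This separation follows from how the genes were chosen and is a description. Kdf1, an epithelial differentiation factor, had the largest value. Its fracture effect was 3.73 in alcohol-fed and -0.25 in pair-fed rats, and its alcohol effect was 2.60 in fractured and -0.31 in unfractured rats. The fitted interaction was 3.44 ± 0.39 (SE of the fit), with a limma adjusted p of 0.138. Mustn1, a small nuclear protein of muscle and of regenerating bone, had a fracture effect of 3.00 in alcohol-fed and 0.53 in pair-fed rats. Its alcohol effect was 3.36 in fractured and 0.70 in unfractured rats, giving an interaction of 2.57 ± 0.60. All 4 deposited differences of Mustn1 were positive, so among these values its interaction is a difference in size. In the fit the fracture effect in pair-fed rats was 0.35 and the alcohol effect in unfractured rats 0.030. With an SE of 0.42 for each, the direction of these 2 effects is not settled. Ccl7, a chemokine that draws monocytes, had a fracture effect of 2.90 in alcohol-fed and 0.31 in pair-fed rats. Its alcohol effect was 2.18 in fractured and 0.0016 in unfractured rats, and the interaction was 2.38 ± 0.38. Both differences that hold alcohol-fed fracture samples were thus large for Ccl7, and the other 2 were small.

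**Figure D2:**
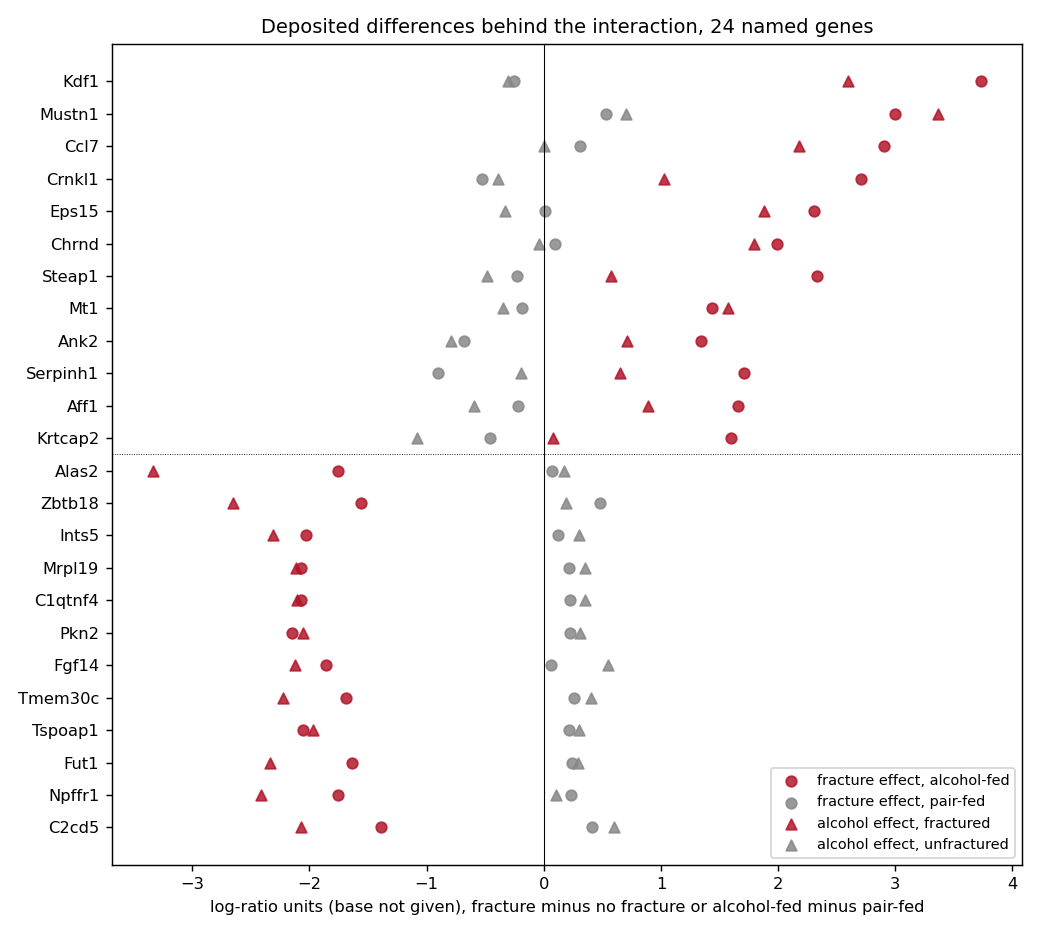
Deposited differences in log-ratio units (x axis) for the 24 named genes (rows), 1 point per pairing. Circles are fracture effects and triangles alcohol effects; red marks differences that hold alcohol-fed fracture samples and grey the others. Red points lie to the right of grey ones in the 12 genes above the dotted line and to the left in the 12 below it.

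Promoter sequences, from RefSeq on build GRCr8, are shown for the 2 high-side genes with the largest interaction that have a window and for Alas2, the low-side gene with the largest, to give the DNA before their start sites. Each window has 300 bases and runs from 250 before the annotated gene start to 50 after it. Capitals mark matches on either strand to TGANTCA (the AP-1 motif of stress and injury signalling), AGATAA (a motif of the GATA factors of red cells), CAGCTG (an E-box of the MyoD family) and CCACCC (bound by factors of the Kruppel-like family); these motifs were chosen for the tissue, and no match overlapped another. The Mustn1 window lies at chr16:6079105-6079404 (plus strand), that of Ccl7 at chr10:67513845-67514144 (plus strand) and that of Alas2 at chrX:22895200-22895499 (plus strand).
Mustn1: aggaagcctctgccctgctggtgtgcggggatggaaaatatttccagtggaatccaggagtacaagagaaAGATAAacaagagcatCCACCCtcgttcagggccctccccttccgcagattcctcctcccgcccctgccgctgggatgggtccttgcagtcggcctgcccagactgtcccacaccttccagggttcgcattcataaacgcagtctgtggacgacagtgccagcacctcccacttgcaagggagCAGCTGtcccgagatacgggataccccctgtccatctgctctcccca
Ccl7: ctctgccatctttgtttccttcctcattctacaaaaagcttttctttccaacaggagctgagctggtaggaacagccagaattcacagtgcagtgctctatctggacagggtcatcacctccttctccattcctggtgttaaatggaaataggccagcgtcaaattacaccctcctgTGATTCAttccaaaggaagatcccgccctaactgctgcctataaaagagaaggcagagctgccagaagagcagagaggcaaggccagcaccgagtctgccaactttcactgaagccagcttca
Alas2: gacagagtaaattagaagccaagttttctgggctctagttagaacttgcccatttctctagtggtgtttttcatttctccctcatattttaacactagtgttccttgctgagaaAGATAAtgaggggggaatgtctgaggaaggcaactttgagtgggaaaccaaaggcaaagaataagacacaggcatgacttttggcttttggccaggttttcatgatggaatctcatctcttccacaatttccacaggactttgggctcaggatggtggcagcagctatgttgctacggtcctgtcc
The Mustn1 window holds AGATAA from base 71, CCACCC from base 87 and CAGCTG from base 254 of the window. The Ccl7 window holds TGATTCA from base 178, and the Alas2 window holds AGATAA from base 115. Of 27457 promoters of this length, 7.33% hold TGANTCA, 11.3% AGATAA, 15.1% CAGCTG and 29.8% CCACCC, so none of these motifs is rare. A match is a description of the letters and not a binding site.

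The remaining high-side genes differed in how evenly the routes supported them. Eps15, an endocytic adaptor, had an interaction of 2.25 ± 0.31, with 2.30 from the fracture pairings and 2.21 from the diet pairings. Chrnd, the delta subunit of the muscle acetylcholine receptor, was at 1.87 ± 0.50, with 1.90 and 1.83, and its 2 probes gave 2.26 and 1.47. Mt1, a metal-binding metallothionein that is known to respond to stress, was at 1.77 ± 0.43, with 1.62 and 1.92. Its 3 probes lay between 1.60 and 1.92, although metallothionein copies are close in sequence and the copy measured is uncertain. In these 3 genes both routes gave nearly the same value. On a pairing outside the estimate, alcohol-fed fracture minus pair-fed no fracture was 2.81 for Eps15 but 0.23 for Chrnd and -0.13 for Mt1. Crnkl1, a splicing factor, had 3.23 from the fracture pairings and 1.42 from the diet pairings. Steap1, of a metalloreductase family, had 2.56 and 1.06. Serpinh1, the collagen chaperone of the endoplasmic reticulum, had 2.61 and 0.84. These 3 were thus larger by the fracture route. Ank2, a membrane skeleton adaptor, reached 1.76 ± 0.22 with opposite effects, since its fracture effect was 1.35 in alcohol-fed and -0.68 in pair-fed rats. Krtcap2, a subunit of the enzyme that adds sugar chains to new proteins, had an alcohol effect of 0.080 in fractured and -1.08 in unfractured rats, so its value on the diet route came from unfractured rats. Aff1, a transcription elongation factor, was at 1.69 ± 0.27. Limma gave these 12 adjusted p-values of 0.138 to 0.241. With the 4 pairings alone it lay between 0.0257 and 0.0956, and 10 of 12 passed, the exceptions being Steap1 (0.0596) and Serpinh1 (0.0956). That count follows in part from the choice of genes, which used the same 4 pairings.

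The 12 named genes of the low side, chosen by the same rule, were far more alike. Their fracture effect ran between -2.15 and -1.39 in alcohol-fed rats, against 0.065 to 0.48 in pair-fed rats. Their alcohol effect ran between -3.33 and -1.97 in fractured rats, against 0.11 to 0.59 in unfractured rats. Alas2, the enzyme that starts haem synthesis in red cell precursors, had a fracture effect of -1.75 in alcohol-fed and 0.066 in pair-fed rats. Its alcohol effect was -3.33 in fractured and 0.17 in unfractured rats, and the interaction was -2.66 ± 0.52. Alas2 was low in the pairings that hold alcohol-fed fracture samples and near 0 in the other 2. Zbtb18, a transcriptional repressor, had a fracture effect of -1.56 in alcohol-fed and 0.48 in pair-fed rats and an interaction of -2.44 ± 0.41. The next 4 genes were Ints5, a subunit of the Integrator complex that processes nuclear RNA, at -2.38 ± 0.49, the mitochondrial ribosomal protein Mrpl19 at -2.38 ± 0.38, the secreted C1q-like protein C1qtnf4 at -2.38 ± 0.35 and the protein kinase Pkn2 at -2.37 ± 0.36. The fracture effect of these 4 in alcohol-fed rats was -2.03, -2.07, -2.07 and -2.15, a narrow range. Fgf14, of the FGF family, was at -2.30 ± 0.36, Tmem30c at -2.29 ± 0.36, Tspoap1 at -2.27 ± 0.39, the fucosyltransferase Fut1 at -2.25 ± 0.43, the neuropeptide receptor Npffr1 at -2.25 ± 0.47 and C2cd5 at -2.23 ± 0.31. Limma gave these 12 adjusted p-values of 0.138 to 0.17, and with the 4 pairings alone all 12 passed at 0.0257 to 0.026. Being chosen for large values on those same 4 pairings, these genes were likely to pass, so the count is a description.

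This likeness reached beyond the named genes. For the 738 low rows with an unadjusted p under 0.01, the median correlation of a row's 6 values with the median row of that side was 0.98, and 697 (94.4%) exceeded 0.9. Of all rows 8.09% did. For the 171 high rows the median was 0.94 and 124 (72.5%) exceeded 0.9, against 2.85% of all rows. The 4 pairings of the estimate chose these rows, so part of the likeness follows from the choice. The fitted value uses neither of the other 2 pairings, although the p does through its error. Alcohol-fed fracture minus pair-fed no fracture was positive in 156 of the 171 high rows, with a median of 0.48, and in 4 of the 738 low rows, with a median of -0.62. Over all rows it was positive in 48.9%. Pair-fed fracture minus alcohol-fed no fracture was positive in 148 of the high rows and in 22 of the low rows, with medians of 0.22 and -0.51, and over all rows in 42.4%. So high rows were also high, and low rows also low, for alcohol-fed fracture on the pairing with pair-fed no fracture. The pairing without alcohol-fed fracture samples was shifted too, in low rows nearly as far (-0.51 against -0.62). The shift was thus not confined to pairings that hold those samples. Both medians were smaller in size than the -1.35 and -1.02 of the low rows on the 2 pairings of the estimate that hold them. The cause was not tested. Rows with a gene symbol made up 53.2% of the high rows, 52% of the low rows and 53.5% of all rows. Signal strength of these spots was not used here, and the part of dim spots in the shared pattern was not tested.

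**Figure D3:**
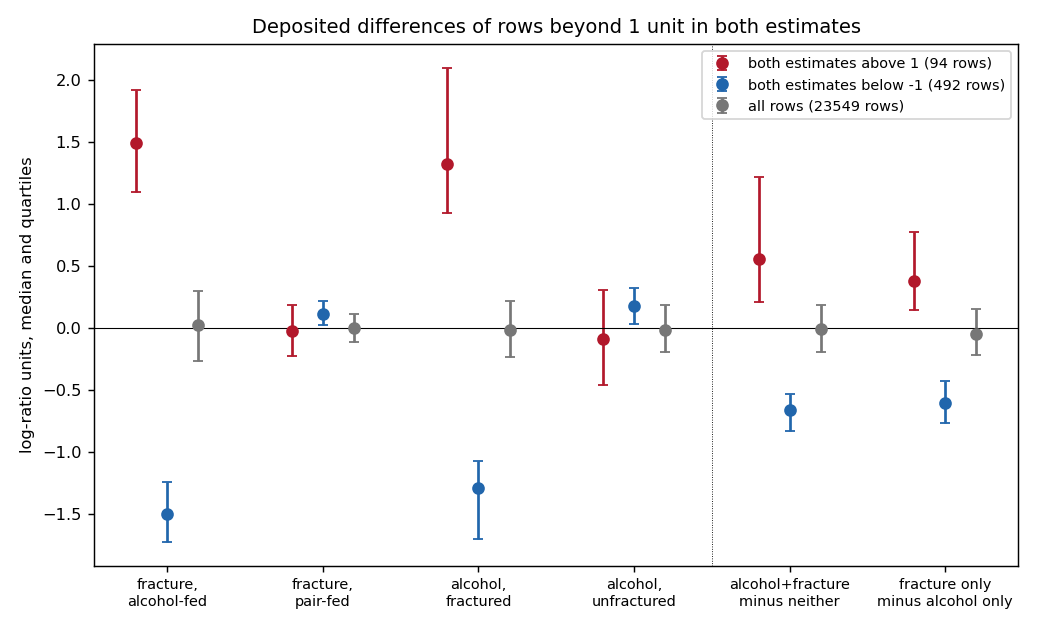
Median and quartiles (bars) of the 6 deposited differences, in log-ratio units, for rows with both estimates above 1 (red), both below -1 (blue) and all rows (grey). Left of the dotted line are the 4 differences that chose the rows; right of it the other 2, with medians of 0.56 and 0.38 in red rows and -0.66 and -0.61 in blue rows.

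Most of these rows had a fracture effect of one sign on alcohol and of the other on the pair-fed diet. Fitted fracture effects were opposite in 122 of the 171 high rows (71.3%) and in 531 of the 738 low rows (72%), against 47.4% of all rows. For the named genes of the low side the fitted effect ran between -2.17 and -1.76 in alcohol-fed and between 0.31 and 0.60 in pair-fed rats. For those of the high side it ran between 1.11 and 3.35 in alcohol-fed and between -0.65 and 0.35 in pair-fed rats. The effect in pair-fed rats was thus smaller in size than that in alcohol-fed rats on both sides. It was not near 0 in every gene, as in Ank2 at -0.60 ± 0.16. Opposite signs were in part fixed by choosing rows for a large difference. With the column of fractured rats turned, fitted effects were opposite in 37 of the same 171 high rows (21.6%) and in 25 of the same 738 low rows (3.39%), against 45.2% of all rows.

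Haem synthesis and erythroid genes had the lowest median of the 28 gene lists, at -0.44, against 0.039 over all rows, of which 54.4% lay above 0. Of 23 measured members 16 were negative, and 8 had an unadjusted p under 0.05, all on the negative side (6.77% of all rows lay there). None passed the adjusted test, and with the 4 pairings alone 5 passed, all negative (1.46% of all rows passed on that side). The median was -0.61 by the fracture pairings and -0.32 by the diet pairings, so both routes lay on the same side. Ahsp, which shields free alpha-globin, had a fracture effect of -1.79 in alcohol-fed and 0 in pair-fed rats, and an interaction of -1.94 ± 0.29. Kel, a red cell surface protein, was at -1.89 ± 0.27, with a fracture effect of -1.43 in alcohol-fed and 0.058 in pair-fed rats. Fech, which puts iron into haem, was at -1.78 ± 0.38, with -2.19 in alcohol-fed and 0.0054 in pair-fed rats. With Alas2 these are the first and the last enzyme of haem synthesis. The members between them were chosen for mention after their values were seen, as were the regulators. Urod was at -1.30 ± 0.35 and Cpox at -1.12 ± 0.35, while Ppox was at 0.057 ± 0.27 and Alad at 0.33 ± 0.20. The red cell regulators Klf1 at 0.096 ± 0.35, Gata1 at -0.054 ± 0.40 and Tal1 at 1.42 ± 0.71 did not share the low values of Alas2, Ahsp and Kel.

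Cell cycle and replication genes had a median of -0.32, with 18 of 22 members negative and 7 at an unadjusted p under 0.05, all negative (6.77% of all rows lay there). By the fracture pairings the median was -0.47 and by the diet pairings -0.082. Mki67, the proliferation antigen, had a fracture effect of -1.53 in alcohol-fed and -0.65 in pair-fed rats, and its interaction was -1.35 ± 0.29. Cdc6, which loads the replication helicase, had -1.51 in alcohol-fed and -0.14 in pair-fed rats and an interaction of -1.20 ± 0.26. Cdc20, an activator of the anaphase complex, was at -0.88 ± 0.21. Aurkb, a mitotic kinase, was at -0.62 ± 0.20, but its 3 probes gave -1.43, -0.23 and -0.19, so 1 probe decides its value. No member passed the adjusted test, nor with the 4 pairings alone.

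**Figure D4:**
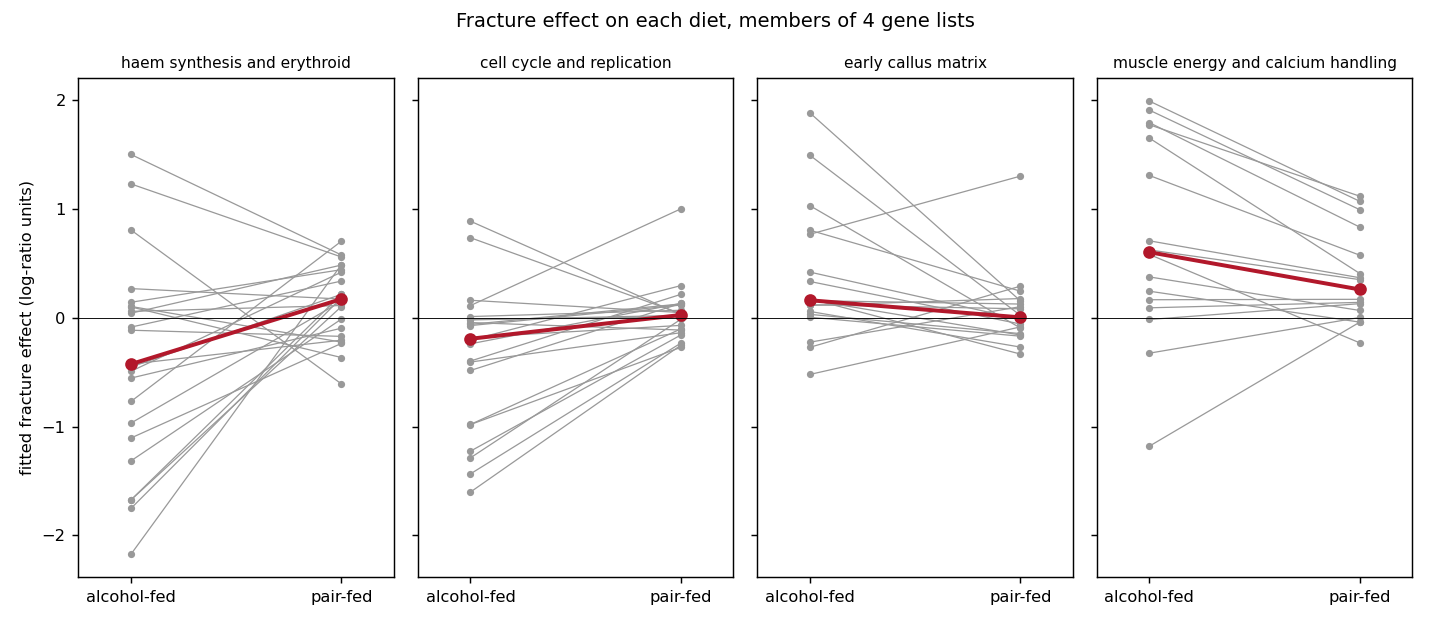
Fitted fracture effect in log-ratio units (y axis) in alcohol-fed and in pair-fed rats for the members of 4 gene lists, 1 grey line per gene and the list median in red. The erythroid median is -0.43 in alcohol-fed and 0.17 in pair-fed rats; the muscle energy median is 0.60 in alcohol-fed and 0.26 in pair-fed rats.

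Skeletal muscle lists lay on the positive side, with less agreement between the routes. Sarcomere proteins had a median of 0.22, with 16 of 20 positive and 2 at an unadjusted p under 0.05, both positive (3.81% of all rows lay there). Energy and calcium genes of muscle had a median of 0.32, with 11 of 16 positive, 3 at an unadjusted p under 0.05 on the positive and 1 on the negative side. For the energy and calcium genes the routes disagreed, with a median of 1.00 by the fracture pairings and -0.25 by the diet pairings, and 8 of 16 had the same sign in both. For sarcomere proteins the medians were 0.37 and 0.11, and 8 of 20 had the same sign. Fracture effects of these lists were positive on both diets, with a median of 0.60 in alcohol-fed and 0.26 in pair-fed rats for energy and calcium genes and of 0.52 and 0.24 for sarcomere proteins. Actn2, the muscle alpha-actinin, was at 1.30 ± 0.55, with a fracture effect of 2.25 in alcohol-fed and 0.66 in pair-fed rats. The fast troponin Tnni2 was at 1.04 ± 0.49, Mybpc2 at 0.87 ± 0.34 and the tropomyosin Tpm1 at 0.85 ± 0.23, whose 3 probes gave 1.40, 0.61 and 0.53. Cacng1, a subunit of the muscle calcium channel, was at 1.24 ± 0.41, the heart and muscle cytochrome oxidase subunit Cox6a2 at 0.92 ± 0.37 and the fatty acid carrier Fabp3 at 0.81 ± 0.29. Eno3, the muscle enolase, lay on the other side at -1.14 ± 0.30. The fitted medians of both muscle lists lay on the other side from the erythroid median, but by the diet pairings the energy and calcium genes lay on its side, as Eno3 did. The part of muscle and marrow content of the samples in the result was not tested.

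Matrix genes of the early callus had a median of 0.25, with 13 of 18 positive and 3 at an unadjusted p under 0.05, all positive (3.81% of all rows lay there). With the 4 pairings alone 0 members passed. These 3 are the chains of collagen VI, a network collagen around cells. Col6a3 had a fracture effect of 2.19 in alcohol-fed and -0.20 in pair-fed rats and an interaction of 1.73 ± 0.49. Col6a1 had 1.68 and -0.17 on these diets and was at 1.47 ± 0.47, and Col6a2 had 1.38 and -0.39 and was at 1.12 ± 0.32. These are the deposited fracture pairings, in which all 3 chains were positive in alcohol-fed and negative in pair-fed rats. In the fit over all pairings the effect in pair-fed rats was 0.16 for Col6a3, 0.022 for Col6a1 and -0.094 for Col6a2. The alcohol effect of Col6a3 was 0.94 in fractured and -0.12 in unfractured rats. Postn, a matrix protein of the bone sheath and callus, was at -0.56 ± 0.29.

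Lists of stress and metabolism genes also had medians above 0.2. Heat shock proteins and chaperones had a median of 0.30, with 12 of 16 positive and 1 at an unadjusted p under 0.05, a count near the share of all rows (3.81% positive and 6.77% negative). That is Hspb1, a small heat shock protein of muscle and stressed cells, at 1.504 ± 0.37, with a fracture effect of 1.71 in alcohol-fed and 0.14 in pair-fed rats. Hspa5, the main chaperone of the endoplasmic reticulum, was at 1.05 ± 0.51, Hspe1 at 0.98 ± 0.44 and Hspb8 at 0.62 ± 0.32. Respiratory chain genes had a median of 0.24, with 15 of 21 positive. Their member with the smallest p was Cox5a, a cytochrome oxidase subunit, at 1.04 ± 0.23, and Uqcrfs1 was at 0.72 ± 0.35. Ndufa9 was at 0.38 ± 0.26 and Atp5pb at 0.35 ± 0.22. Immediate early genes had a median of 0.22, with 12 of 18 positive. Rhob, a small GTPase induced by stress, had a fracture effect of 2.52 in alcohol-fed and 0.76 in pair-fed rats, and its interaction of 1.56 ± 0.75 had a wide error. The transcription factor Klf6 was at 0.69 ± 0.29, the nuclear receptor Nr4a1 at 0.40 ± 0.19 and the stress factor Atf3 at -0.60 ± 0.25. Growth factors of repair had a median of 0.22, with 17 of 21 positive. Pdgfa was at 0.70 ± 0.24 and Igf1 at 0.65 ± 0.23, while the receptors Igf1r and Fgfr1 were at -0.85 ± 0.28 and -0.54 ± 0.23.

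**Figure D5:**
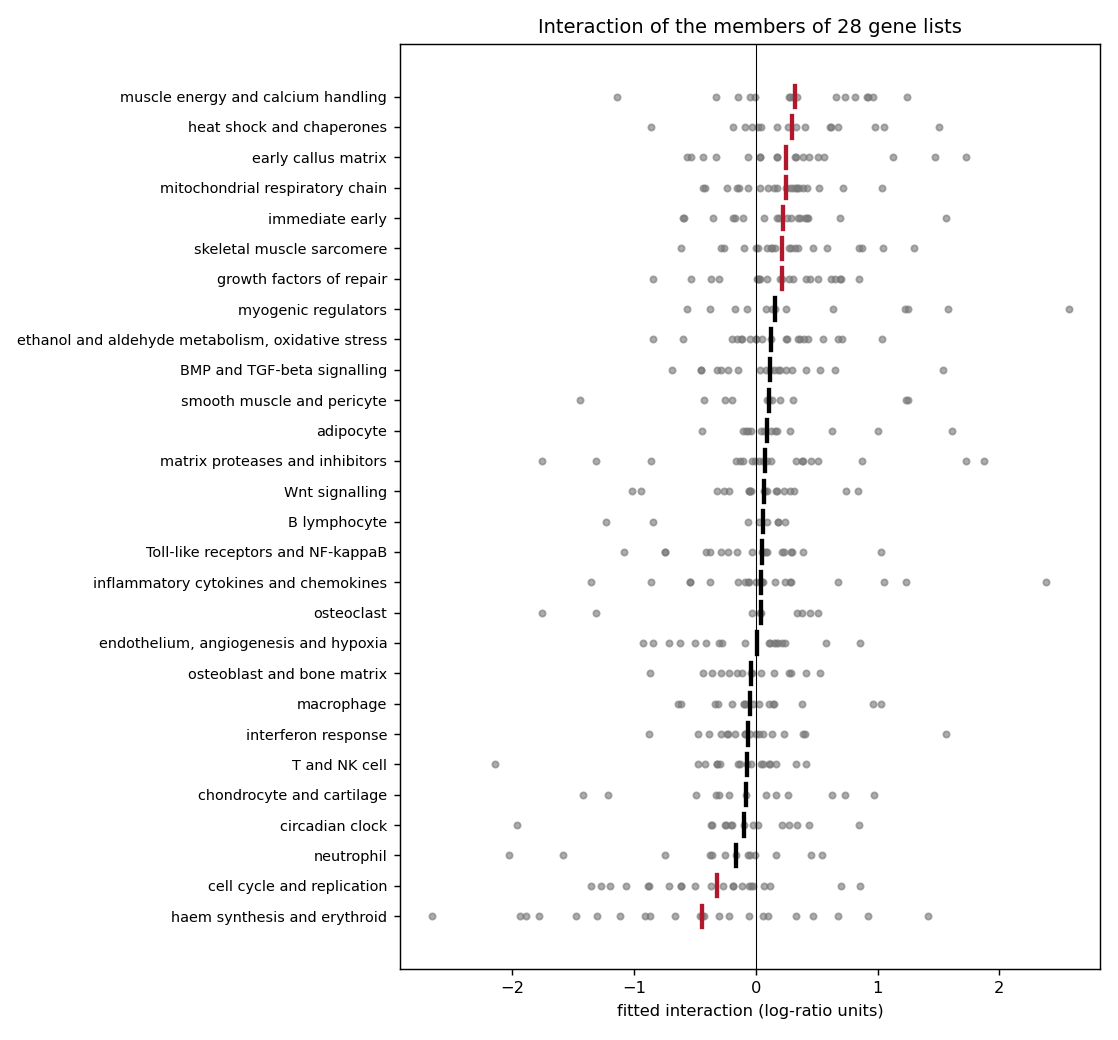
Fitted interaction in log-ratio units (x axis) of each measured member (grey points) of 28 gene lists (rows), with the list median as a bar, red where it lies outside -0.2 to 0.2. Medians run between -0.44 for haem synthesis and erythroid genes and 0.32 for muscle energy and calcium genes.

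The other 19 lists had medians between -0.17 and 0.16. Neutrophil markers lay at -0.17, with 10 of 13 negative, chondrocyte genes at -0.082, osteoblast genes at -0.042, macrophage markers at -0.051 and T and NK cell markers at -0.070. Circadian clock genes lay at -0.098 and interferon response genes at -0.067. Endothelium and hypoxia genes lay at 0.0064, osteoclast genes at 0.040, inflammatory cytokines at 0.041 and Toll-like receptor genes at 0.047. B lymphocyte markers lay at 0.060, Wnt genes at 0.065, matrix proteases at 0.074, adipocyte genes at 0.095, smooth muscle genes at 0.11, BMP and TGF-beta genes at 0.12, ethanol metabolism genes at 0.13 and myogenic regulators at 0.16. A median near 0 does not mean that members lay near 0. Among those chosen after their values were seen, the neutrophil peroxidase Mpo was at -2.02 ± 0.52 and the neutrophil protein S100a9 at -1.58 ± 0.32. The killer cell protein Prf1 was at -2.14 ± 0.56, the clock output factor Dbp at -1.97 ± 0.33, the cartilage protein Matn1 at -1.42 ± 0.23 and the chemokine Ccl4 at -1.36 ± 0.33. Of the macrophage markers 9 of 16 were negative, with Lyz2 at 0.96 ± 0.22 and Cd14 at 1.02 ± 0.28 but the antibody receptor Fcgr3a at -0.64 ± 0.23. Of the interferon response genes 11 of 18 were negative, with Mx1 at 1.56 ± 0.28 and Gbp2 at -0.88 ± 0.20. The chemokines Ccl7 and Ccl4 thus lay on opposite sides with the columns as read. With the diet pairing of fractured rats turned, Ccl7 was at 0.21 and Ccl4 at 0.19, on the same side. Mpo, Prf1 and Dbp then turned sign, to 0.42, 0.61 and 0.30, while S100a9 and Matn1 kept it, at -0.31 and -0.22. No list member passed the adjusted test with the columns as read. With the 4 pairings alone 17 of 464 list genes passed (3.66%), against 1.66% of all rows.

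The 9 genes fixed for their roles in bone repair and alcohol metabolism had interactions between -0.54 and 0.29. The bone growth factor Bmp2 was at -0.28 ± 0.29, the vessel growth factor Vegfa at -0.50 ± 0.20 and the cytokine Il6 at -0.54 ± 0.21. Vegfa was measured by 2 probes, at -0.13 and -0.88. The cytokines Tnf and Il1b were at 0.29 ± 0.25 and 0.24 ± 0.27. The osteoblast regulators Runx2 and Sp7 were at -0.22 ± 0.23 and -0.032 ± 0.28, the bone matrix protein Bglap at 0.29 ± 0.36 and Aldh2, which clears acetaldehyde, at -0.16 ± 0.32. Limma adjusted p for these lay between 0.437 and 0.981. Unadjusted limma p was 0.040 for Vegfa and 0.042 for Il6, and over 0.05 for the others (10.6% of all rows lay under 0.05). Il6 had a fracture effect of -0.42 in alcohol-fed and 0.10 in pair-fed rats, and its routes gave -0.53 and -0.55.

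The values depend on how the pairing of fractured rats on both diets is read. With that column turned, 0 rows passed, the correlation between the estimates was -0.185 and 19 of the 24 named genes kept their sign. The 12 high-side genes then lay between -0.80 for Mustn1 and 1.53 for Krtcap2, and the 12 low-side genes between -0.31 for Pkn2 and 0.67 for Alas2. The erythroid median was then -0.11, that of cell cycle genes -0.14, that of sarcomere proteins -0.29 and that of muscle energy and calcium genes -0.15, so all 4 lay on the negative side. Medians were 0.098 for the early callus matrix, 0.14 for immediate early genes, 0.067 for growth factors, 0.036 for the respiratory chain and 0.017 for heat shock proteins. Of the 36 genes named from these 9 lists, 26 kept their sign and 15 lay within 0.2 of 0. The value was -8.0e-05 for Ahsp, 0.0074 for Kel, -1.12 for Fech and 0.023 for Hspb1. It was -0.67 for Actn2, -0.79 for Cox6a2 and -0.42 for Rhob, which turned sign, and 0.78 for Col6a3, 0.53 for Col6a1 and 0.95 for Col6a2, which did not. With the column that pairs pair-fed fractured with alcohol-fed unfractured rats turned instead, the values stayed and the smallest limma adjusted p was 0.119, again with 0 rows past the threshold.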

How the data were processed

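The deposited values are log ratios that, per the labels, the authors made from dye-swapped 2-colour arrays, 1 per probe and pairing, each column with a mean of 0. Of their making, the log base, numerator, scanner and normalization were not found in the labels or file headers. Of 26503 probes, 22 control spots were left out. In GEO's platform annotation, 15521 probes have 1 symbol and 10960 have none or more than 1. Of those single symbols, 11824 were current in RefSeq, 3653 were updated and 44 kept. Probes of a gene were averaged, which joined probes of 2219 genes and left 23549 rows.

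Limma 3.58.1 (R 4.3.3) was fitted to all 6 pairings, each with +1 for the first-named and -1 for the second-named group, with 3 residual and 3.66 prior degrees of freedom. Tests were two-sided, adjusted over all rows by Benjamini-Hochberg at 0.05. The fit was also run on simulated data with known changes. There the errors had the same spread in all columns and each direction was known. That run therefore says nothing about the unequal spreads and unsettled directions here. Since the labels do not say that numbered samples are separate rats, p-values reflect only how these samples spread, which may be technical. The fit takes 6 log ratios per row, 1 per pairing with its dye swap already merged, so these and not the arrays set the precision.

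Named genes are the 12 largest on each side past the threshold, or filled from an unadjusted p under 0.01, with 1 symbol and 1 sign in both estimates, provisional symbols skipped, plus, for each list whose median lies beyond 0.2, its 4 members of smallest p, and 9 fixed genes. Members, lists and rules were chosen with earlier results of these data known.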

Additional observations from a re-analysis of the deposited data

How the results depend on the processing

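The count of rows past the threshold was 0 with each of the 6 columns turned in turn, with columns scaled to 1 spread, weighted by inverse variance or centred on the median, with robust variances, with probes kept separate and with named rows only. It ranged from 0 to 0 when each pairing was left out in turn, with the smallest limma adjusted p from 0.116 to 0.848. It was 392 with the 4 pairings of the estimate alone and 2 by ordinary least squares. Unadjusted p under 0.05 was reached by 520 rows (alcohol-fed fracture pairing turned) to 3110 rows (pairing of pair-fed fracture and alcohol-fed fracture left out). The correlation of both estimates was 0.317 with the fracture pairing of pair-fed rats turned, -0.185 with the diet pairing of fractured rats turned, 0.185 with that of unfractured rats turned, -0.317 with the fracture pairing of alcohol-fed rats turned and 0.241 with columns scaled. The cause of these shifts other than the turned signs was not tested. Rows with both estimates on one side numbered 2204 beyond 0.5 and 586 beyond 1 log unit. All 24 named genes of both sides kept their sign under every alternative run for them except turning the diet pairing of fractured rats (19 kept it) or the fracture pairing of alcohol-fed rats (17). Of the 9 list medians outside -0.2 to 0.2, 7 and 4 kept their sign under those turns and 8 with columns scaled. Several of these alternatives could not change a sign, because they leave the fitted values as they are. They are the 4 pairings alone, ordinary least squares, robust variances, named rows only, and turning or leaving out a pairing outside the estimate. Choosing the named genes for 1 sign in both estimates also made a kept sign more likely elsewhere. No paired analysis was possible because each pairing is 1 sample. Signal over background was not used here, so dim spots could not be left out.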

Other observations

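As read, the diet pairing of fractured rats, whose direction is not settled, held very low values for several bone and cartilage genes. These genes were picked after their values were seen. Ctsk, the collagen-cutting protease of osteoclasts, had an alcohol effect of -3.18 in fractured and 0.37 in unfractured rats. Its fracture effect was 0.052 in alcohol-fed and 0.0021 in pair-fed rats, so the diet pairings gave -3.55 and the fracture pairings 0.050. Mmp9, a matrix protease of osteoclasts and neutrophils, had an alcohol effect of -3.06 in fractured rats, with -3.34 by the diet pairings and 0.71 by the fracture pairings. Col10a1, the collagen of mature growth cartilage cells, had -4.86 there and a fracture effect of 0.19 in alcohol-fed and -2.56 in pair-fed rats, with -5.18 by the diet and 2.75 by the fracture pairings. Only 6 of 23549 rows had a lower alcohol effect in fractured rats than Ctsk. Other osteoclast genes did not share it, with Clcn7 at 1.06, Car2 at 0.29, Oscar at 0.072, Csf1r at 0.021 and Calcr at -0.063. Cartilage genes lay on both sides, with Snorc at -1.78 and Matn1 at -1.20 but Col11a1 at 0.48 and Prg4 at 0.23. Alcohol-fed fracture minus pair-fed no fracture, on other samples, was -0.80 for Ctsk, -1.02 for Mmp9 and -0.78 for Col10a1. The fitted interactions were -1.75 ± 0.92, -1.31 ± 0.95 and -1.22 ± 1.88, with unadjusted limma p of 0.10, 0.211 and 0.539. With the diet pairing of fractured rats turned, the alcohol effects of Ctsk, Mmp9 and Col10a1 in fractured rats changed sign. Their interactions were then 1.43, 1.74 and 3.65.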
